A study of Mus musculus with 10 samples.

Results

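The HOX genes are the 39 rows of the deposited gene table whose symbol is exactly Hoxa, Hoxb, Hoxc or Hoxd followed by a number from 1 to 13, out of 56748 genes in all. They lie in 4 clusters. On GRCm38 with GENCODE M21, cluster A holds 11 members on chromosome 6 (52155590 to 52260880) and cluster B holds 10 on chromosome 11 (96194316 to 96368256). Cluster C holds 9 members on chromosome 15 (102921103 to 103036852) and cluster D holds 9 on chromosome 2 (74668310 to 74765142). Genes of the same number in different clusters are paralogues. Rows were matched by symbol alone, but the family was chosen with earlier results of these data known.

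HOX genes code for homeodomain transcription factors that give cells of the body axis and limbs their positional identity. Genes of low number, at one end of each cluster, are used in the hindbrain, pharyngeal arches and neck. Genes of middle number are used in the trunk, and those of high number in the lower back, tail and distal limb. Mesenchyme of most of the face uses none of them, and connective tissue cells of the adult keep much of their HOX code. PBX and MEIS proteins bind DNA together with HOX proteins, and polycomb complexes keep unused members silent.

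Every library held poly(A) RNA from day 14 cultures of 3xR, a single line of mouse embryonic stem cells that carries a tdTomato reporter named for Prg4 (lubricin of joint surfaces) and an eGFP reporter named for Col2a1 (the main collagen of cartilage). The groups were 3 libraries of Prg4-tdTomato+ cells from Fsk cultures (replicates 1, 4 and 5), 3 of Prg4-tdTomato+ cells from DMSO cultures (replicates 1, 3 and 5) and 4 of Col2a1-eGFP+ cells from DMSO cultures (replicates 1, 3, 4 and 5). The labels abbreviate the treatment as Fsk without spelling it out, and DMSO is the solvent control. Values below follow that order of replicates. Whether replicates were grown as separate cultures is not stated in the labels, and the spread behind each p-value may thus be technical. In bulk RNA, fewer cells of a type and less RNA per cell cannot be told apart.

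Hoxa2, Hoxb4 and Hoxd8 had the highest level per length of all members outside Fsk replicate 1, the library whose HOX levels stood apart. Hoxa10 was a cluster A member whose level separated the Fsk from the DMSO libraries. The promoters of these members are shown here, to set the levels beside the DNA that starts them. They are the 250 bases before the start in the RefSeq table (GRCm38.p6), 5′ to 3′ on the gene's strand. Capitals mark matches, on either strand, to TGACG (the short cAMP response element), TGATNNAT (a PBX and HOX composite site) and CCAAT (a promoter box). The Hoxa2 window is chr6:52164832-52165081 on the minus strand, and the Hoxa10 window is chr6:52234940-52235189 on the minus strand, the lower in coordinate of 2 Hoxa10 starts in that table. The Hoxb4 window is chr11:96318017-96318266 on the plus strand, and the Hoxd8 window is chr2:74704365-74704614 on the plus strand.
Hoxa2: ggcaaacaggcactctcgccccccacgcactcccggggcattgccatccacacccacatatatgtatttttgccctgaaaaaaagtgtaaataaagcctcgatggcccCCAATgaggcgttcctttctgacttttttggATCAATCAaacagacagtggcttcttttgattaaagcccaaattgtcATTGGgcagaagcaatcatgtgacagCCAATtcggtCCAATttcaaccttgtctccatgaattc
Hoxa10: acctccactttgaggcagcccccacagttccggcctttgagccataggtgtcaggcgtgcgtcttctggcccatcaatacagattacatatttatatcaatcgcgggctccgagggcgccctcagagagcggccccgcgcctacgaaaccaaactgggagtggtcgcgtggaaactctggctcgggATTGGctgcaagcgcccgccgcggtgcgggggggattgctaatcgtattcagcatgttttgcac
Hoxb4: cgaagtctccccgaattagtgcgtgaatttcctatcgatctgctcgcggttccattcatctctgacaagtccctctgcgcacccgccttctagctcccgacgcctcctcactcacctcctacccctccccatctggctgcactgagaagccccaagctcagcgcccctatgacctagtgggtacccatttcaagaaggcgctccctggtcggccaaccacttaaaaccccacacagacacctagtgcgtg
Hoxd8: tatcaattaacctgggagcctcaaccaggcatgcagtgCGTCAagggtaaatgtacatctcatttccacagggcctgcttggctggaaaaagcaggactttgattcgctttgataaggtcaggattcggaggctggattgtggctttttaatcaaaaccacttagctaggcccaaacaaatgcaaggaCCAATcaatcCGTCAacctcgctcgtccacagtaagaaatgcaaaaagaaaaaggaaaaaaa

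The Hoxa2 window held 1 match to TGATNNAT and 4 to CCAAT, the Hoxa10 window 1 to CCAAT, the Hoxd8 window 2 to TGACG and 1 to CCAAT, and the Hoxb4 window none. The table had 24 promoters of 22 HOX genes. The full cAMP response element TGACGTCA, which contains TGACG, was in 0 of the 24, against 1.55% of all 32851 promoters searched. TGACG was in 7 HOX promoters (29.2%, against 17.8% of all), TGATNNAT in 4 (16.7%, against 7.68%) and CCAAT in 14 (58.3%, against 33.8%). A match is a description of these letters only.

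The libraries held 15355459 to 20408696 counted reads. Col2a1 stood at 19.7 to 53.6 CPM (read counts relative to the scaled library size, the usual depth-normalised unit) in tdTomato+ Fsk libraries, 82.1 to 390 CPM in tdTomato+ DMSO libraries and 838 to 2992 CPM in eGFP+ DMSO libraries. Prg4, the gene named by the tdTomato reporter, averaged 0.716 ± 0.0632 CPM in tdTomato+ Fsk, 0.835 ± 0.389 CPM in tdTomato+ DMSO and 1.01 ± 1.17 CPM in eGFP+ DMSO libraries (SD, n = 3, 3 and 4), with its highest value, 2.55 CPM, in an eGFP+ library. Its level thus does not mark the tdTomato+ cells. The tdTomato+ Fsk library of replicate 1 stood apart in its HOX genes. Over all genes, its mean correlation with the other Fsk libraries was 0.946, against 0.951 and 0.950 for replicates 4 and 5. The DMSO libraries had 0.906 to 0.941 within their groups. Fsk replicate 1 was the highest library for 12.9% of tested genes, against 8.44% and 8.03% for Fsk replicates 4 and 5. For eGFP+ replicates 1 and 3 that share was 13% and 17%. Because of its HOX levels, tests and fold changes are given with and without Fsk replicate 1.

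HOX transcripts were scarce. The members together had 3106, 757 and 1003 reads in tdTomato+ Fsk libraries, 763, 613 and 1125 in tdTomato+ DMSO libraries and 323, 138, 499 and 571 in eGFP+ DMSO libraries. Per 100000 counted reads this is 20.2 in Fsk replicate 1 and between 0.677 and 6.24 in the other libraries. The summed HOX level averaged 93.5 ± 82.2 CPM in tdTomato+ Fsk cells, 38.8 ± 6.66 CPM in tdTomato+ DMSO cells and 22.3 ± 8.79 CPM in eGFP+ DMSO cells (SD, n = 3, 3 and 4). Fsk replicate 1 had 188 CPM, while Fsk replicates 4 and 5 had 42.6 and 49.7 CPM, close to the 31.7 to 44.9 CPM of the tdTomato+ DMSO libraries. The 4 eGFP+ DMSO libraries, at 9.92 to 29.5 CPM, all lay below the 6 tdTomato+ libraries.

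A member was counted as detected in a library at 1 CPM or more; 3 reads, the limit that a count of 0 allows, are 0.12 to 0.216 CPM. Detected members numbered 28, 11 and 11 in tdTomato+ Fsk libraries, 8, 11 and 10 in tdTomato+ DMSO libraries and 7, 2, 7 and 8 in eGFP+ DMSO libraries. Of the 39 members, 12 were detected in at least 3 libraries and 18 in only 1 or 2, while 9 were detected in none. Hoxb2 and Hoxb4 were the 2 detected in all 10. Cluster C had 7 of its 9 members detected in Fsk replicate 1 and 0 in each of the other 9 libraries. The highest detected number in cluster A was 13 in 6 libraries, 11 in Fsk replicate 4 and 10 in Fsk replicate 5 and eGFP+ replicate 5, and eGFP+ replicate 3 had no detected member of cluster A.

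**Figure D1:**
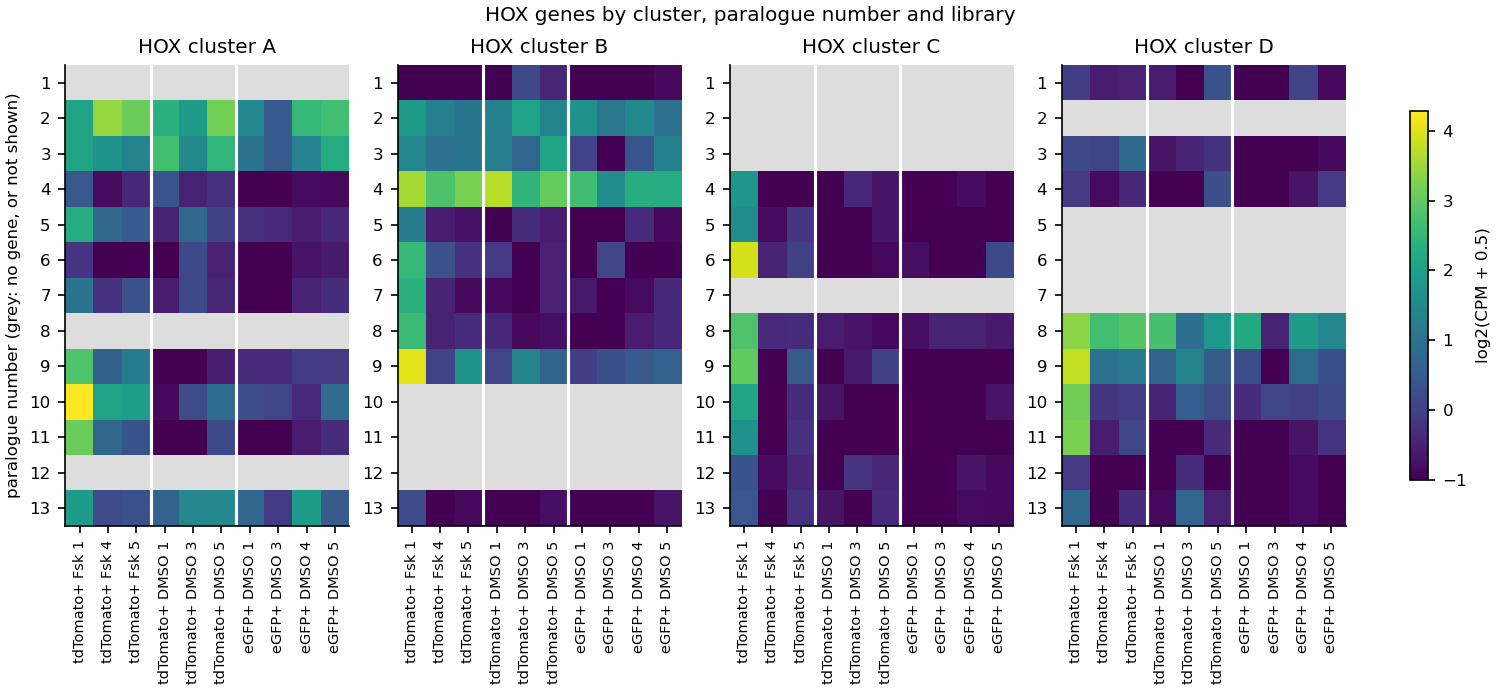
Level of the HOX genes (rows, paralogue number) in each library (columns) for the 4 clusters, as log2(CPM + 0.5), with Fsk libraries at the left, tdTomato+ DMSO in the middle and eGFP+ DMSO at the right of each panel. The rows for numbers 2 and 3 of cluster A, numbers 2 to 4 of cluster B and Hoxd8 are bright in most libraries, and cluster C is bright in the column of Fsk replicate 1 alone.

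The low-numbered genes made up most of the HOX signal in 8 of 10 libraries. Levels per kilobase of exon, which can be compared between genes, were summed over paralogues 1 to 4, 5 to 8 and 9 to 13. Paralogues 1 to 4 held 14.7, 58.7 and 51.2% of the HOX level in tdTomato+ Fsk libraries, 71.3, 48.7 and 67.6% in tdTomato+ DMSO libraries and 61.6, 57.2, 57.5 and 63.2% in eGFP+ DMSO libraries. Fsk replicate 1 was the lowest by far, and tdTomato+ DMSO replicate 3 was the other library under 50%. Paralogues 9 to 13 held 52.5, 19.2 and 28.1% in tdTomato+ Fsk libraries, 9.63, 34.1 and 20.6% in tdTomato+ DMSO libraries and 16.6, 26.7, 26.7 and 20.7% in eGFP+ DMSO libraries. Apart from Fsk replicate 1 the groups overlapped in both shares.

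In absolute level, the excess of Fsk replicate 1 lay in the middle and high numbers. Paralogues 1 to 4 summed to 30.1, 24.0 and 24.5 CPM in tdTomato+ Fsk libraries, 29.0, 17.4 and 31.3 CPM in tdTomato+ DMSO libraries and 13.9, 6.04, 15.9 and 19.2 CPM in eGFP+ DMSO libraries. Paralogues 5 to 8 summed to 57.1, 9.39 and 10.5 CPM in tdTomato+ Fsk libraries, 7.45, 4.29 and 4.83 CPM in tdTomato+ DMSO libraries and 4.75, 1.29, 4.47 and 4.23 CPM in eGFP+ DMSO libraries. Paralogues 9 to 13 summed to 101, 9.16 and 14.7 CPM in tdTomato+ Fsk libraries, 3.28, 10.03 and 8.78 CPM in tdTomato+ DMSO libraries and 3.58, 2.59, 7.17 and 6.04 CPM in eGFP+ DMSO libraries. The low-numbered sum of Fsk replicate 1 was within the range of the tdTomato+ DMSO libraries, while its sums for the other classes were above all 9 other libraries. For paralogues 5 to 8, Fsk replicates 4 and 5 also exceeded all DMSO libraries, and for 9 to 13 replicate 5 did and replicate 4 did not.

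Across clusters, A and B carried most of the signal outside that library and C almost none. Cluster A summed to 51.8, 21.5 and 19.2 CPM in tdTomato+ Fsk libraries, 11.8 to 21.0 CPM in tdTomato+ DMSO libraries and 3.45 to 14.4 CPM in eGFP+ DMSO libraries. Cluster C summed to 42.3, 0.618 and 3.32 CPM in tdTomato+ Fsk libraries, 0.365, 0.879 and 1.36 CPM in tdTomato+ DMSO libraries and 0.138, 0.216, 0.441 and 0.980 CPM in eGFP+ DMSO libraries. In Fsk replicate 1 cluster C thus held 23.9% of the HOX level per kilobase, close to the 24.7%, 27.9% and 23.6% of clusters A, B and D, and in the other libraries it held 0.631% to 7.76%.

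**Figure D2:**
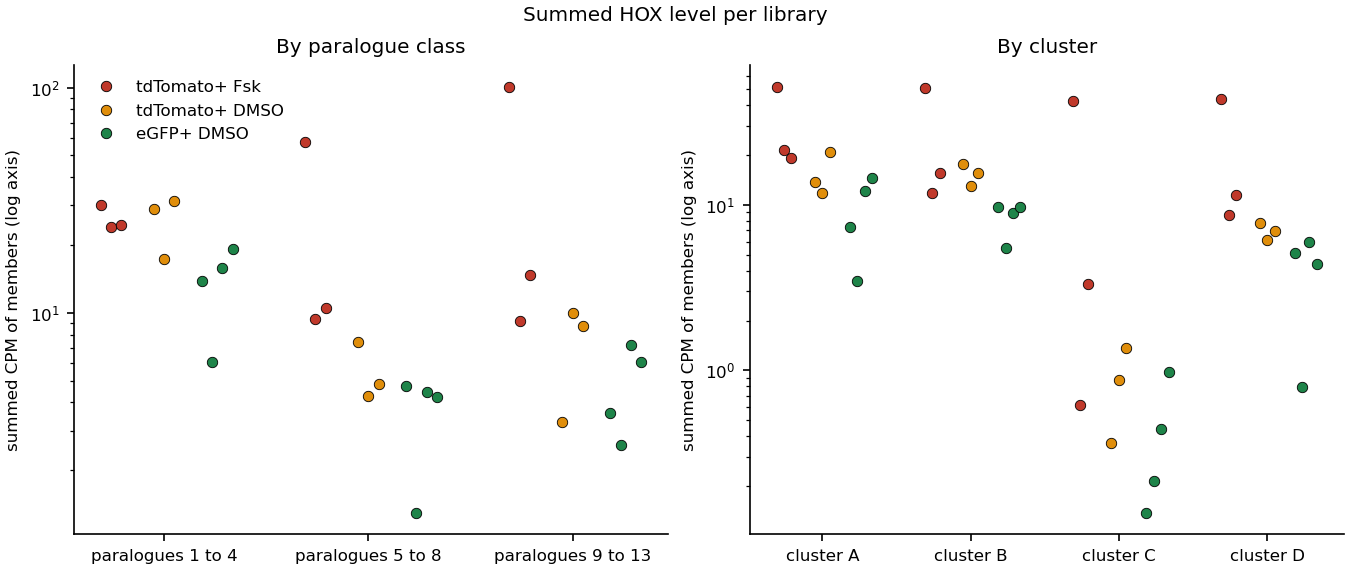
Summed CPM of the HOX members per library on a log axis, by paralogue class (left panel) and by cluster (right panel), with 1 point per library. Fsk replicate 1 is the top point of each class and cluster except paralogues 1 to 4, where it has 30.1 CPM and 1 tdTomato+ DMSO library has 31.3 CPM.

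The library in which each member was highest follows the same order. Fsk replicate 1 was the highest of the 10 libraries for 28 of the 39 members: 2 of the 12 with numbers 1 to 4, 10 of the 11 with numbers 5 to 8 and all 16 with numbers 9 to 13, including all 9 of cluster C. Of the 18 members in the count test, 12 were highest there, against 2088 of 16169 tested genes (12.9%). No member was highest in an eGFP+ DMSO library, against 41.8% of tested genes. These are descriptions of 1 library, with no test.

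Among the anterior genes, Hoxa2 and Hoxb4 had the highest mean levels per kilobase of all members (2.99 and 2.69 CPM per kilobase). Hoxa2, which sets the identity of the second pharyngeal arch, had 3.76, 10.4 and 8.07 CPM in tdTomato+ Fsk libraries, 4.64, 3.26 and 8.42 CPM in tdTomato+ DMSO libraries and 2.27, 0.934, 5.30 and 5.93 CPM in eGFP+ DMSO libraries. Its groups overlapped, and Fsk replicate 1 was the lowest of the Fsk libraries. Hoxb4, active in the hindbrain and neck region and in blood progenitors, had 11.4, 6.46 and 8.77 CPM in tdTomato+ Fsk libraries, 12.6, 5.02 and 7.67 CPM in tdTomato+ DMSO libraries and 5.79, 2.52, 4.36 and 4.33 CPM in eGFP+ DMSO libraries. The Fsk libraries all lay above the eGFP+ libraries, and the tdTomato+ groups overlapped. Hoxa3 and Hoxb3, used in the third pharyngeal arch and its glands, had 2.08 to 3.76 and 1.46 to 2.24 CPM in tdTomato+ Fsk libraries, 2.33 to 5.89 and 1.14 to 3.75 CPM in tdTomato+ DMSO libraries and 0.934 to 4.23 and 0 to 2.01 CPM in eGFP+ DMSO libraries. Of Hoxb3 exon bases 52.9% overlap Hoxb3os on the other strand, and of Hoxa3 exon bases 25.4% overlap antisense genes, so without stated strand use their reads cannot be told apart. Hoxb1 and Hoxd1, of the most anterior group, and Hoxa4, Hoxd3 and Hoxd4 reached 1 CPM in at most 1 library each, and Hoxd3 and Hoxd4 share over 50% of their exon bases with overlapping genes on their own strand.

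Trunk genes of numbers 5 to 8 were low except Hoxd8. Hoxd8 had 9.82, 5.90 and 6.83 CPM in tdTomato+ Fsk libraries, 6.20, 1.40 and 3.03 CPM in tdTomato+ DMSO libraries and 4.13, 0.216, 3.26 and 2.17 CPM in eGFP+ DMSO libraries. It was the third member by level per kilobase with and without Fsk replicate 1 (1.57 and 1.34 CPM per kilobase), and its Fsk libraries all lay above the eGFP+ libraries. Hoxc6, a gene of the shoulder and upper thorax, had 14.8, 0.225 and 0.495 CPM in tdTomato+ Fsk libraries, 0, 0 and 0.0399 CPM in tdTomato+ DMSO libraries and 0.0689, 0, 0 and 0.619 CPM in eGFP+ DMSO libraries. Its level in Fsk replicate 1 was 23.9 times that of the next library, the largest such ratio of any member, and the ratio was 22 for Hoxc8, 18.6 for Hoxb8 and 18.1 for Hoxb7. Those 3 genes, and Hoxa9, Hoxa11 and Hoxd11 below, were picked after their values were seen.

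Of the genes numbered 9 to 13, numbers 9 to 11 of cluster A were above all DMSO libraries in every Fsk library. Hoxa10, which shapes the lumbar region, thigh and uterus, had 18.9, 3.60 and 3.37 CPM in tdTomato+ Fsk libraries, 0.0521, 0.672 and 1.32 CPM in tdTomato+ DMSO libraries and 0.689, 0.575, 0.276 and 1.29 CPM in eGFP+ DMSO libraries. Each Fsk library, replicates 4 and 5 included, was above each DMSO library. The same held for Hoxa9, a gene of the posterior trunk and of blood stem cells, with 6.61, 1.07 and 1.73 CPM in tdTomato+ Fsk libraries, 0, 0 and 0.160 CPM in tdTomato+ DMSO libraries and 0.276, 0.288, 0.441 and 0.413 CPM in eGFP+ DMSO libraries. Hoxa11, a gene of the forearm and lower leg, had 7.94, 1.18 and 0.792 CPM in tdTomato+ Fsk libraries, 0, 0 and 0.639 CPM in tdTomato+ DMSO libraries and 0, 0, 0.166 and 0.310 CPM in eGFP+ DMSO libraries, again without overlap. Hoxa11os, which covers 35% of Hoxa11 exon bases on the other strand, had 5.70 CPM in Fsk replicate 1 and at most 0.644 CPM elsewhere.

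Against the tdTomato+ DMSO libraries, the remaining high-numbered genes rested on Fsk replicate 1 or showed no order. Hoxb9 had 16.1, 0.562 and 2.82 CPM in tdTomato+ Fsk libraries, 0.573, 2.12 and 1.12 CPM in tdTomato+ DMSO libraries and 0.482, 0.719, 0.883 and 1.08 CPM in eGFP+ DMSO libraries. Hoxd9 had 13.3, 1.46 and 1.68 CPM in tdTomato+ Fsk libraries, 1.09, 2.07 and 0.958 CPM in tdTomato+ DMSO libraries and 0.689, 0, 1.32 and 0.722 CPM in eGFP+ DMSO libraries. For both genes, Fsk replicate 1 was over 5 times the next library. The lowest Fsk library lay below all tdTomato+ DMSO libraries for Hoxb9 and within their range for Hoxd9. Hoxc9 had 7.40, 0 and 0.891 CPM in tdTomato+ Fsk libraries, 0, 0.155 and 0.519 CPM in tdTomato+ DMSO libraries and 0 reads in all eGFP+ DMSO libraries. Hoxa13, the gene of digits and the urogenital tract and the highest-numbered member detected in at least 3 libraries, had 3.27, 0.675 and 0.743 CPM in tdTomato+ Fsk libraries, 1.09, 2.22 and 2.32 CPM in tdTomato+ DMSO libraries and 1.17, 0.431, 3.20 and 0.929 CPM in eGFP+ DMSO libraries. Fsk replicate 1 exceeded the next library for Hoxa13 by a ratio of 1.02, against 14.8 for Hoxd11 and 13.1 for Hoxc10.

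**Figure D3:**
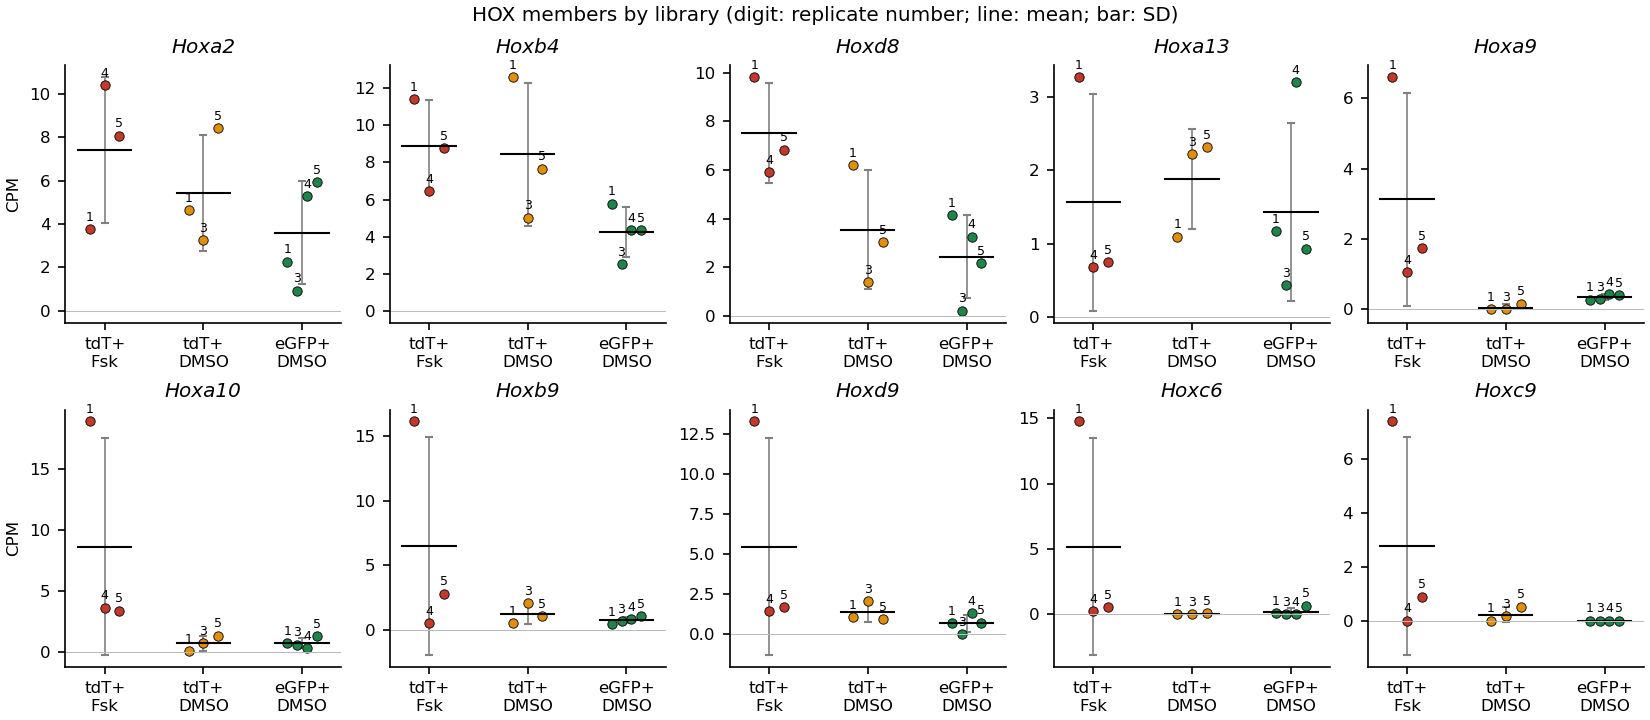
CPM of 10 HOX members in each library (points, with the replicate number above), with the group mean (line) and SD (bar), from tdTomato+ Fsk at the left to eGFP+ DMSO at the right. Hoxa9 and Hoxa10 lie above all DMSO libraries in each of the 3 Fsk libraries, while for Hoxb9, Hoxd9, Hoxc6 and Hoxc9 the Fsk mean is set mainly by replicate 1.

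The count test compared tdTomato+ Fsk with tdTomato+ DMSO cells, to ask what Fsk changed within the Prg4-tdTomato+ cells. Of 39 members, 18 passed the filter on low counts and 21 did not; a gene could pass through 3 Fsk libraries alone, so counts over the tested members lean towards genes high in Fsk. By edgeR's quasi-likelihood test with Benjamini-Hochberg adjustment at 0.05, 0 of 18 were called, against 92 of 16169 genes (0.569%: 0.297% higher and 0.272% lower in Fsk). At an unadjusted p below 0.05, 5 members were higher in Fsk and 0 lower, against 5% and 5.4% of tested genes, and DESeq2 called 2 members (Hoxa9 and Hoxa10, with 3.65% of all genes called) and limma-voom 0 (0.458%). The 5 were Hoxa9, Hoxa10, Hoxa11, Hoxc6 and Hoxb9. Without Fsk replicate 1, 2 members (Hoxa9 and Hoxa10) were higher at that threshold and 0 lower, against 4.73% and 5.67% of tested genes.

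Hoxa9 had the smallest adjusted p of any member. It had 19 to 109 reads in each Fsk library and 0 to 8 reads in each DMSO library. It thus passed the filter through the Fsk libraries alone and was tested only because it was high there. Its log2 fold change of Fsk over DMSO was 5.59 (SE 1.22, edgeR adjusted p = 0.066) on 163 reads in Fsk and 4 reads in DMSO libraries, and 4.47 (adjusted p = 0.28) without Fsk replicate 1. That p is close to the threshold. By edgeR it was 0.0429 with the replicate number as a block, for which the pairing check was unclear here. With these 2 groups alone it was 0.0386, and without tdTomato+ DMSO replicate 5 it was 0.0485. For Hoxa10 the change was 3.63 (SE 0.995, edgeR adjusted p = 0.142) and 2.34 (adjusted p = 0.453) without Fsk replicate 1. Hoxa11, with 0 to 16 reads in each DMSO library, also passed the filter only with its Fsk libraries. Its change was 3.85 (SE 1.53, edgeR adjusted p = 0.37), and 2.15 (adjusted p = 0.766) without Fsk replicate 1. Hoxb9 had 2.35 (SE 0.95, edgeR adjusted p = 0.38), and 0.42 (adjusted p = 0.927) without it. Hoxc6 had 258 reads in Fsk libraries and 1 in DMSO libraries, a ratio of 301 with an interval from 53.6 to 11900 that covers counting error only, and 244 of those reads were from Fsk replicate 1.

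Over the 18 tested members the median log2 fold change was 1.54 (all tested genes −0.0257), and 0.551 without Fsk replicate 1. In 13 of the 18 the change was positive, and in 11 without that library. The groups did not overlap for 4 tested members that were higher in Fsk (9.01% of tested genes) and 1 that was lower (7.98%). Without Fsk replicate 1 these numbers were 4 (16.3% of tested genes) and 3 (15.8%). The members of cluster A numbered 9 to 11 are 3 of the 4 in the full set. Of these, Hoxa9 and Hoxa11 passed the filter only with their Fsk libraries.

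Fsk tdTomato+ cells were also set against eGFP+ DMSO cells, which differ in reporter and treatment at once. Of 18 tested members, 0 were called by edgeR (220 of 16169 genes, 1.36%: 0.643% higher and 0.717% lower in Fsk), and DESeq2 called 5 (Hoxa5, Hoxa9, Hoxa10, Hoxa11 and Hoxb9, with 4.95% of all genes called) and limma-voom 0 (1.11%). At an unadjusted p below 0.05, 12 members were higher in Fsk (6.23% of tested genes) and 0 lower (5.7%). Without Fsk replicate 1 these were 2 (Hoxa10 and Hoxc9, 4.03% of tested genes) and 0 (4.8%). Hoxc9 then rested on 18 reads in Fsk replicate 5, with 0 in Fsk replicate 4 and in each eGFP+ library. The smallest adjusted p was that of Hoxa10, with a log2 fold change of 3.59 (SE 0.893, edgeR adjusted p = 0.0744), and 2.29 (adjusted p = 0.474) without Fsk replicate 1. It was 0.0494 without eGFP+ DMSO replicate 5, 0.0369 with these 2 groups alone and 0.0338 with the replicate number as a block. Hoxa5, a gene of the neck, lung and shoulder, had 4.30, 1.24 and 0.941 CPM in tdTomato+ Fsk libraries and 0.344, 0.288, 0.166 and 0.258 CPM in eGFP+ DMSO libraries. Those groups did not overlap, with a log2 fold change of 3.01 (SE 0.851, edgeR adjusted p = 0.121), and 2.03 (adjusted p = 0.596) without Fsk replicate 1. Hoxa5 had 3 to 5 reads in each eGFP+ library and passed the filter on low counts only with its Fsk libraries. It was thus tested because it was high there.

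The others of these 12 included Hoxb4 and Hoxd8. The log2 fold change was 1.06 for Hoxb4 (edgeR adjusted p = 0.337) and 1.62 for Hoxd8 (0.393), and 0.84 and 1.38 without Fsk replicate 1. For Hoxb9, Hoxd9 and Hoxd10 it was 3.02, 2.97 and 2.60, and without that library 1.09, 1.18 and −0.22, so that of Hoxd10 turned round. Hoxc9 had 140 reads in Fsk and 0 in eGFP+ libraries, at least 56.5-fold higher against a floor of 3 reads over the group, and 122 of the reads came from Fsk replicate 1. The median over tested members was 2.59 (all tested genes −0.00818) and 1.14 without that library. The groups did not overlap for 8 tested members that were higher in Fsk (6.59%) and 0 that were lower (5.16%), and without Fsk replicate 1 for 9 (10.1%) and 0 (8.78%).

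**Figure D4:**
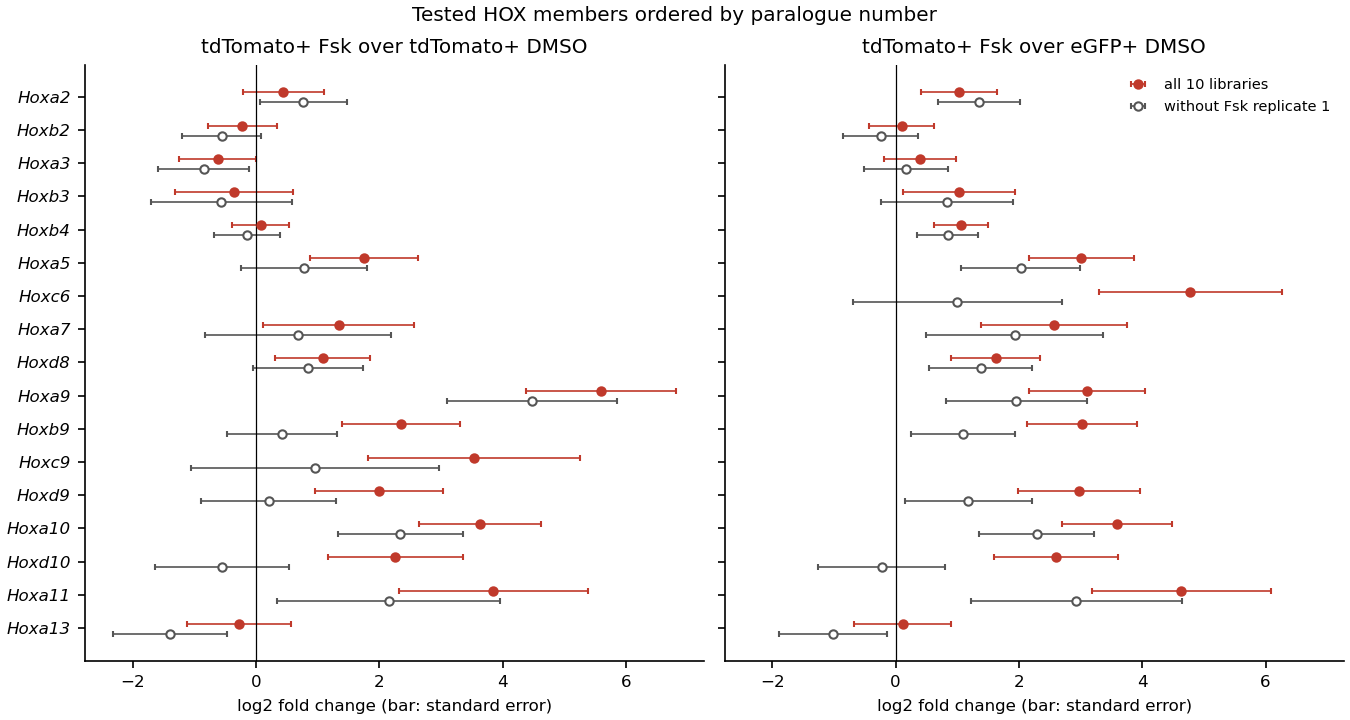
Log2 fold change and standard error of tested HOX members, top to bottom by paralogue number, for tdTomato+ Fsk over tdTomato+ DMSO (left) and over eGFP+ DMSO (right), with all 10 libraries (filled) and without Fsk replicate 1 (open). Hoxc6 at left and Hoxc9 at right are left out because the DMSO libraries had 1 and 0 reads; Hoxa9, Hoxa10 and Hoxa11 have changes of 3.11 to 5.59 with all libraries and 1.96 to 4.47 without that library, while Hoxb9, Hoxd9 and Hoxd10 are at 1.18 or less.

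Between tdTomato+ and eGFP+ cells in DMSO no HOX gene passed the test. By edgeR with group as the only term, which leaves out the pairing by number, 0 of 18 tested members and 0 of 16169 genes (0%) were called. With the replicate number as a block 14 genes were called, none a HOX gene. In that fit Hoxb4 had a log2 fold change of 0.93 (SE 0.325) and Hoxa9 −2.75 (SE 1.22), each with edgeR adjusted p = 0.835. DESeq2 and limma-voom called 0 members (0.0806% and 0% of all genes). At an unadjusted p below 0.05, 1 member was higher in tdTomato+ cells, Hoxb4 (0.68% of tested genes), and 1 lower, Hoxa9 (0.686%), together 1.37% of tested genes. For Hoxb4 the log2 fold change was 0.99 (SE 0.438, edgeR adjusted p = 1), on the libraries given above. For Hoxa9 it was −2.48 (SE 1.12, edgeR adjusted p = 1), on 4 reads in tdTomato+ DMSO and 24 reads in eGFP+ DMSO libraries. Hoxa9 was in this test only because its Fsk libraries passed the filter. The median over tested members was 0.726 (all tested genes 0.0236), with 15 of 18 positive. The groups did not overlap for 0 tested members that were higher (1.6%) and 1 that was lower (1.15%). Within the same-numbered pairs, 7 tested members were higher in tdTomato+ cells in all 3 (18.5% of tested genes) and 1 was lower, Hoxa9 (13.6%). The 7 were Hoxa2, Hoxa3, Hoxb3, Hoxb4, Hoxb9, Hoxd8 and Hoxd9, a count added after the data were seen and given with no test. The 3 comparisons share libraries, so their values are set side by side and not compared.

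Hoxa2 and Hoxd8 varied with the replicate number in DMSO cultures. The number was tested as a factor over the 6 DMSO libraries numbered 1, 3 and 5 in both populations; the labels do not say what it marks. Of 12 tested members 2 were called by edgeR (16.7%), against 4995 of 15187 genes (32.9%), so the share of HOX genes was not above that of all genes. Hoxa2 (adjusted p = 0.0267) was highest in replicate 5 and lowest in replicate 3 in both populations, with a mean difference of 1.71 on the log2(CPM + 0.5) scale between them. Hoxd8 (adjusted p = 0.0166) was highest in replicate 1 and lowest in replicate 3 in both, with a difference of 2.24. With all 10 libraries the adjusted p was 0.0414 for Hoxa2 and 0.0535 for Hoxd8, so 1 member was called.

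Among cofactors of the HOX proteins, Meis1 and Pbx3 differed. In the comparison of tdTomato+ Fsk with eGFP+ DMSO cells, 2 of 9 tested PBX, MEIS and PKNOX genes rose (1.36% of tested genes were called), and 0 fell. Meis1 had 78.9, 41.8 and 45.3 CPM in tdTomato+ Fsk libraries, 16.3, 15.3 and 22.2 CPM in tdTomato+ DMSO libraries and 11.8, 6.04, 15.1 and 21.2 CPM in eGFP+ DMSO libraries. Each Fsk library was above all DMSO libraries, with a log2 fold change over eGFP+ cells of 2.03 (SE 0.399, edgeR adjusted p = 0.0244). Pbx3 had 60.1, 41.2 and 52.9 CPM in tdTomato+ Fsk libraries, 18.7, 11.9 and 25.8 CPM in tdTomato+ DMSO libraries and 13.4, 12.3, 19.6 and 23.2 CPM in eGFP+ DMSO libraries, again without overlap (1.58, SE 0.339, edgeR adjusted p = 0.0379). Both calls are lost without any one of the Fsk libraries or without eGFP+ replicate 1 or 4, and that of Pbx3 also without eGFP+ replicate 3. The adjusted p then was 0.0533 to 0.147 for Meis1 and 0.0699 to 0.167 for Pbx3, while the change stayed at 1.69 or more and 1.45 or more. Against tdTomato+ DMSO cells 0 of 9 were called, with 1.63 for Meis1 (SE 0.434, edgeR adjusted p = 0.131) and 1.45 for Pbx3 (SE 0.37, edgeR adjusted p = 0.112). Between the DMSO groups 0 of 9 were called.

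Of 15 genes that set or read the axial position upstream of the clusters, 7 were tested. T (brachyury, of the primitive streak and notochord) had 0.546, 0.618 and 0.347 CPM in tdTomato+ Fsk libraries, 3.96, 9.05 and 0.599 CPM in tdTomato+ DMSO libraries and 35.4, 47.3, 13.1 and 9.34 CPM in eGFP+ DMSO libraries. It fell by 5.69 on the log2 scale in Fsk against eGFP+ cells (SE 0.942, edgeR adjusted p = 0.0118), the 1 call of this list. The adjusted p was 0.0532 to 0.0779 when any one Fsk library was left out, with the change between −5.87 and −5.47. In the other comparisons 0 of 7 were called. Cdx2, which opens the posterior part of the clusters in the embryo, had 0 reads in every library, and Cdx1 and Cdx4 had at most 3 reads in any. Tgfbr1, a receptor of the GDF11 signal for trunk and tail, averaged 57.1 ± 18.3 CPM in tdTomato+ Fsk cells, 86.1 ± 4.55 CPM in tdTomato+ DMSO cells and 97.3 ± 17.8 CPM in eGFP+ DMSO cells (SD, n = 3, 3 and 4), with no call.

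**Figure D5:**
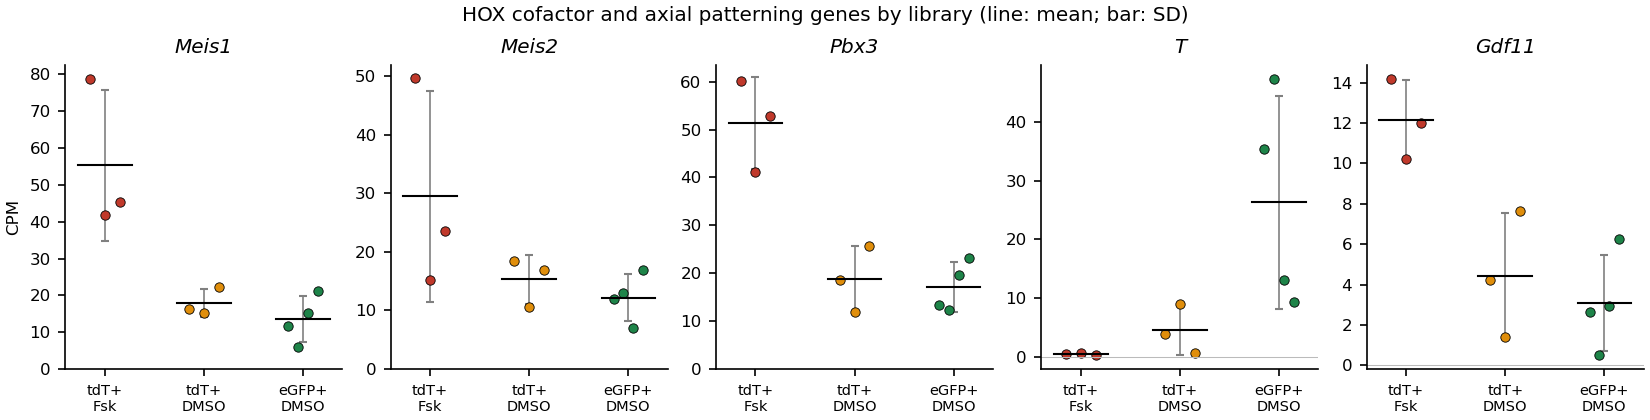
CPM of the HOX cofactors Meis1, Meis2 and Pbx3 and of the axial genes T and Gdf11 in each library (points), with group mean (line) and SD (bar). Meis1 and Pbx3 in Fsk libraries (41.2 CPM or more) lie above all DMSO libraries (25.8 CPM or less), and T in Fsk libraries (0.618 CPM or less) lies below all eGFP+ DMSO libraries.

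Other regulators of the clusters did not pass the test. Of 23 polycomb and trithorax genes, which keep HOX genes silent or active, all 23 were tested and 0 were called in each of the 3 comparisons, with medians of −0.214 for Fsk over tdTomato+ DMSO and 0.0316 for Fsk over eGFP+ DMSO. The most abundant, Phc2 and Rnf2, averaged 129 ± 33.9 and 76.1 ± 16.6 CPM in tdTomato+ Fsk cells, 108 ± 31.9 and 88.3 ± 39.7 CPM in tdTomato+ DMSO cells and 95.7 ± 23.6 and 103 ± 44.9 CPM in eGFP+ DMSO cells (SD, n = 3, 3 and 4). Of 29 other annotated genes within the clusters, mostly antisense and long non-coding, 11 were tested and 0 called in each comparison. Hoxaas2 and Hotairm1, at the anterior end of cluster A, averaged 8.39 ± 5.91 and 6.86 ± 2.58 CPM in tdTomato+ Fsk cells, 9.89 ± 10.1 and 5.42 ± 0.878 CPM in tdTomato+ DMSO cells and 5.57 ± 4.14 and 7.08 ± 3.07 CPM in eGFP+ DMSO cells (SD, n = 3, 3 and 4). Some uncalled genes were still ordered by group. Ezh1 had 5.30 to 9.67 CPM in Fsk libraries and 12.05 to 28.96 CPM in DMSO libraries. Haglr, in cluster D, had 3.32 to 3.71 CPM in Fsk libraries and at most 1.51 CPM in DMSO libraries. Both were picked after their values were seen. Fsk and tdTomato+ DMSO did not overlap for 9.01% (higher) and 7.98% (lower) of tested genes.

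Positional factors outside the clusters were called in none of the comparisons either, with 15 of 23 limb and head genes and 4 of 10 ParaHox and other homeobox genes tested. Six2, of head and kidney mesenchyme, averaged 66.8 ± 14.9 CPM in tdTomato+ Fsk cells, 49.5 ± 30.5 CPM in tdTomato+ DMSO cells and 38.3 ± 19.1 CPM in eGFP+ DMSO cells (SD, n = 3, 3 and 4). Dlx2 and Dlx1, of the jaw arches and forebrain, averaged 54.6 ± 2.58 and 14.1 ± 0.713 CPM in tdTomato+ Fsk cells, 71.1 ± 40.7 and 20.8 ± 9.79 CPM in tdTomato+ DMSO cells and 41.0 ± 17.4 and 13.4 ± 6.48 CPM in eGFP+ DMSO cells (SD, n = 3, 3 and 4).

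Sums of cell type markers in Fsk replicate 1 were looked at beside its HOX levels. The 5 endothelial markers summed to 10.1 CPM there, against 0.842 CPM in the lowest Fsk library, 1.16 to 1.60 CPM in tdTomato+ DMSO libraries and 0.431 to 1.60 CPM in eGFP+ DMSO libraries, with 3 of 5 highest there and 0 at a level of 0. The 6 epithelial and endoderm markers summed to 70.6 CPM there, against 7.82 CPM in the lowest Fsk library, 3.23 to 26 CPM in tdTomato+ DMSO libraries and 15.3 to 107 CPM in eGFP+ DMSO libraries. The 10 chondrocyte markers summed to 816 CPM there, the lowest of the Fsk libraries (816 to 1700 CPM), against 1660 to 2680 CPM in tdTomato+ DMSO libraries and 2950 to 7950 CPM in eGFP+ DMSO libraries. That low sum was set by Col11a1, with 506, 1272 and 1465 CPM in the Fsk libraries. Among the Fsk libraries, Col9a1 and Matn3 were also lowest in replicate 1. Sox9, Sox5, Sox6, Acan, Col2a1, Matn1 and Comp were instead highest in Fsk replicate 1. The 10 neural markers summed to 46.7 CPM there, the top of the Fsk libraries (17.2 to 46.7 CPM) with 3 of 10 highest there, against 44.6 to 60.1 CPM in tdTomato+ DMSO libraries and 37.4 to 77.4 CPM in eGFP+ DMSO libraries. The other types looked at were tendon, skeletal muscle, blood and pluripotency. In Fsk replicate 1 the tendon and pluripotency sums (926 and 1.03 CPM) were the lowest of the Fsk libraries. The skeletal muscle sum (6.06 CPM) was within the Fsk range of 2.08 to 7.23 CPM. The blood sum was 0.424 CPM, against up to 1.29 CPM in tdTomato+ DMSO libraries. The part of these markers in the HOX levels of that library was not tested.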

How the data were processed

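RNA from 10 libraries was measured as raw counts per gene, deposited by the authors in 1 table (the values are whole numbers). Trizol was used for extraction, per the labels, and the submitters' processing notes name mm10 as the build. For the aligner, counting program, annotation and strand use, nothing was found (not given in the sources used here). The HOX members and all gene lists were chosen with earlier results of these data known. Named members were the 2 of each cluster highest per kilobase, the highest-numbered detected member, and any called member; from each list, called genes or the 2 most abundant. Some genes that this rule names are not reported here.

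The tests used edgeR 4.0.16 under R 4.3.3: filterByExpr by group (16169 genes), CPM on TMM-scaled library sizes (factors 0.683 to 1.395), and glmQLFit (robust) with glmQLFTest, with group as the only term over all 10 libraries, 7 residual degrees of freedom and Benjamini-Hochberg adjustment at 0.05. An SE is the log2 fold change divided by the square root of F. The table has no length column, so levels per kilobase use GENCODE M21 exon lengths, matched by identifier for 52125 genes (91.9%) and 39 of 39 members. Intervals of read ratios are exact (Clopper-Pearson, 95%) and cover counting error only. The steps were tested on simulated data.

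Same-numbered tdTomato+ and eGFP+ DMSO libraries deviated together (r 0.63, 0.492 and 0.649, each over 0.1), so those numbers pair the samples. For Fsk with tdTomato+ DMSO the same-numbered r was 0.109 and 0.403, but Fsk replicate 4 had 0.312 with tdTomato+ DMSO replicate 1. For Fsk with eGFP+ DMSO it was 0.0703, 0.101 and 0.443. The pairing is thus unclear in comparisons with Fsk. No 2 libraries of a group agreed within sampling noise (lowest chi-square per degree of freedom 92.2). Alternatives were DESeq2 1.42.0, limma-voom (limma 3.58.1), RLE scaling, other filters, 2-group fits, the replicate block, exon length of the longest transcript and each library left out.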

Additional observations from a re-analysis of the deposited data

Results flagged for a closer look

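Among 28 sets of values in the eGFP+ DMSO group, where 4 libraries allow the check, 1 had a library far from the others. The sets were the 18 tested members, the sums of each cluster and of all members, and Meis1, Pbx3, T, Col2a1 and Prg4. Hoxc6 stood at 0.619 CPM in replicate 5, while the nearest of the other 3 libraries had 0.0689 CPM and the lowest 0, a gap of 0.889 of the whole range. Chance alone marks about 1 in 20 such sets. The value rests on 12 reads.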

How the results depend on the processing

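HOX members with an unadjusted p below 0.05 kept their direction under every alternative run except Hoxd10 (Fsk over eGFP+), at −0.222 without Fsk replicate 1 (−0.222 to 3.13 with a library left out). The number of called genes depended on the fit. For tdTomato+ over eGFP+ cells in DMSO (0 genes) it was 13 with DESeq2, 18 with no filter, 14 with the replicate block and 68 when the block was fitted to the 3 DMSO pairs only, and no HOX member was called in any of them. For Fsk over tdTomato+ DMSO (92 genes) it was 566 with DESeq2, 462 with no filter, 260 with only the 2 groups, 508 with the replicate block, 50 without both libraries numbered 3 and 22 to 75 with a library left out. For Fsk over eGFP+ DMSO (220 genes) it was 798, 800, 266 and 820 under the first 4 of these and 51 to 469 with a library left out. HOX members called, 0 in each comparison as reported, were 2 with DESeq2, 7 with no filter, 1 with only the 2 groups and 1 with the block against tdTomato+ DMSO (0 to 1 with a library left out), and 5, 14, 1 and 1 against eGFP+ DMSO (0 to 1). In comparisons with Fsk the pairing by number was unclear. The test of replicate number called 1647 genes and 1 HOX member with all 10 libraries, against 4995 and 2. At 0.5 CPM 19 members and at 5 CPM 3 members were detected in at least 3 libraries, against 12. The cause of these changes was not tested. Depth limits the silent members: 3 reads are 0.12 to 0.216 CPM.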

Other observations

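Among positional factors outside the clusters, Pitx1 and Hand2 showed the same library apart from the others, and Tbx5 did not. Tbx18 went the other way, with 1.39, 8.99 and 6.73 CPM in tdTomato+ Fsk libraries. Six2 had 56.1 CPM in Fsk replicate 1, within the 11.4 to 83.8 CPM of the other libraries. All these genes were picked after their values were seen. Pitx1, a gene of hindlimb identity, had 5.58, 0.112 and 0.347 CPM in tdTomato+ Fsk libraries and at most 0.319 CPM in tdTomato+ DMSO and 0.497 CPM in eGFP+ DMSO libraries. Hand2, of the posterior limb bud and heart, had 4.73, 0 and 0.198 CPM in tdTomato+ Fsk libraries and at most 0.759 CPM in tdTomato+ DMSO and 1.01 CPM in eGFP+ DMSO libraries. Tbx5, of the forelimb, had 0, 0.0562 and 0 CPM in tdTomato+ Fsk libraries and at most 1.28 CPM in tdTomato+ DMSO and 1.75 CPM in eGFP+ DMSO libraries.

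Evx1, the homeobox gene beside Hoxa13, had a log2 fold change of −3.78 for Fsk over tdTomato+ DMSO cells (SE 0.949, edgeR adjusted p = 0.107) and −3.61 over eGFP+ DMSO cells (SE 0.921, edgeR adjusted p = 0.0831), and −3.83 and −3.66 without Fsk replicate 1. It did not pass the test in either comparison.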
